A study of Mus musculus with 3 samples.

Results

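The genes described here are 5 ligands of the bone morphogenetic protein (BMP) family, Bmp2, Bmp4, Bmp5, Bmp8a and Gdf10 (also called BMP3B), and 4 secreted antagonists, Grem1 (gremlin 1), Nog (noggin), Chrdl1 (chordin-like 1) and Fst (follistatin). They were taken by name, and all 9 are among the 32285 genes of the count matrices. Their levels are given across fibroblast states, the other cell types and 3 single-cell RNA-seq libraries of mouse dorsal skin, 1 per condition.

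BMP ligands are secreted dimers of the TGF-beta superfamily that bind type I and type II serine/threonine kinase receptors. For most of these ligands, though not all, the receptors phosphorylate SMAD1, SMAD5 and SMAD9. With SMAD4 these enter the nucleus and switch on the Id genes, Msx1, Msx2 and the feedback inhibitors Smad6, Smad7 and Bambi. Noggin, gremlin and the chordin family trap the ligands outside the cell, and follistatin binds activins most strongly and some BMPs. In skin, BMPs from the dermis and from the hair follicle's inner layers hold hair follicle stem cells at rest, and antagonists from the dermal papilla and its surroundings release them at the start of hair growth.

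The skin came from wild-type C57BL/6J mice that the labels call female and 8 weeks old. Since the exposures ran over 12 weeks, 8 weeks can only be the age before them, and the age at collection is not given. CON mice received vehicle and no UV, UV mice received vehicle and a mixed source of UVA (0.60 mW/cm2) and UVB (3.5 mW/cm2) on alternate days over 12 weeks, and Rux mice received the same light with an ointment of 1.5% ruxolitinib, an inhibitor of JAK1 and JAK2, after each exposure. Whole-thickness tissue was taken 1 day after the last exposure, and how many mice entered each library is not given in the sources used here. With 1 library per condition no difference between conditions has a replicate check and no test was made. Every interval below is a 95% interval for counting error only.

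The 3 matrices held 13170 (CON), 12411 (UV) and 11287 (Rux) cells, of which 10777, 10231 and 9299 were kept, with 140959836, 117340092 and 115727559 unique molecular identifiers (UMIs, 1 per captured RNA molecule). The Y-linked genes Ddx3y, Uty and Eif2s3y stood at 58.0 to 121 CPM (a gene's UMIs scaled to the same fixed total in every library or class) in all 3 libraries and Xist at 0.0922 to 0.119 CPM, which goes against the label of female mice. Chrdl1 lies on the X chromosome. Between 28 and 50 cell barcodes were shared by each pair of libraries. The markers of other cells moved with the conditions: over all kept cells the inner root sheath and hair shaft list summed to 431, 1134 and 1128 CPM in CON, UV and Rux, the fibroblast list to 6419, 9533 and 13007 CPM, and the haemoglobin list to 15.9, 819 and 1022 CPM. Their part in the results was not tested.

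Cells were clustered without the 9 genes and without 55 further BMP pathway genes, so that none of these set a cluster. Of 46 clusters, 34 took the names of 18 cell types from their markers, and the other 12 are called here by leading genes. Fibroblast-like (FB-like) cells numbered 3307 in CON, 4964 in UV and 4655 in Rux, and their fibroblast markers summed to 34094, 25996 and 26509 CPM. They were split again into 13 states, likewise called by leading genes. The Saa3/Hp state held 0, 12 and 426 cells in CON, UV and Rux, and the Socs3/Gadd45g state 1184, 446 and 14, and whether such a state belongs to a library or to its condition cannot be told apart.

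On the mm10 build (GRCm38, coordinates and strands from GENCODE M21), Bmp2 lies at chr2:133552159-133562885 (+), Bmp4 at chr14:46383520-46390669 (-), Bmp5 at chr9:75775364-75900310 (+), Bmp8a at chr4:123312645-123343252 (-) and Gdf10 at chr14:33923587-33937983 (+). Grem1 lies at chr2:113746164-113758646 (-), Nog at chr11:89300638-89302332 (-), Chrdl1 at chrX:143285674-143394262 (-) and Fst at chr13:114452290-114458951 (-). Oxct2a overlaps Bmp8a on the same strand, and Bmp8b is a close paralog of it, so counts of Bmp8a are less certain than the others. Antisense genes overlap Bmp4 (Gm15217 and Gm15222), Bmp5 (Gm26903) and Fst (Gm47040).

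RefSeq promoter windows (GRCm38.p6) were at hand for 5 of the 9 genes. Those of the 4 that differed by at least 1.5-fold between CON and UV in FB-like cells are printed, as the 250 bases before the transcription start, 5′ to 3′ on the gene's strand. Capitals mark GGCGCC, a palindromic motif bound by SMAD proteins downstream of BMP receptors.
Grem1 (chr2:113758649-113758898, minus strand): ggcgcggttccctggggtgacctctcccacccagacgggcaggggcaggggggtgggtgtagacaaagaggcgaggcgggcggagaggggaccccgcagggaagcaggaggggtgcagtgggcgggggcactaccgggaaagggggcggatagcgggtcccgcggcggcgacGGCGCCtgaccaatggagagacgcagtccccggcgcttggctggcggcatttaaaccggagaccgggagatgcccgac
Bmp4 (chr14:46390670-46390919, minus strand): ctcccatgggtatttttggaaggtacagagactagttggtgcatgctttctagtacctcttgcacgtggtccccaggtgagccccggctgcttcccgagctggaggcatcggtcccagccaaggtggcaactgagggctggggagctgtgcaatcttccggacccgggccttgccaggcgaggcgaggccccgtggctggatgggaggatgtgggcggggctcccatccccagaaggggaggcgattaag
Bmp5 (chr9:75775115-75775364, plus strand): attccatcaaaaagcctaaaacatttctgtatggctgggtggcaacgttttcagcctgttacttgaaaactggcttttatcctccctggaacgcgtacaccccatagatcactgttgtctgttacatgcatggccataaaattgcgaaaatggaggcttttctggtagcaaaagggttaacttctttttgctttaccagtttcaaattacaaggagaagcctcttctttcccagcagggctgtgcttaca
Bmp8a (chr4:123343253-123343502, minus strand): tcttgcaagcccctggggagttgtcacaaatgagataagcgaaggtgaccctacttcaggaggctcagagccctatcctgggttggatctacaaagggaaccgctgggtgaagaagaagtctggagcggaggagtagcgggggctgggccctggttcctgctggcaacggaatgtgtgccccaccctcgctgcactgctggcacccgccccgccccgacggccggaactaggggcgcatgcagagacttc
Grem1, which encodes a BMP antagonist, holds the motif once, starting 78 bases before the start, while 9.59% of 32851 such windows hold it on either strand. Neither the STAT motif TTCNNNGAA (7.02% of windows) nor the AP-1 motif TGANTCA (6.75%), each searched on both strands, matched in these 4 windows. GC content was 72.0% for Grem1, 63.2% for Bmp4, 42.8% for Bmp5 and 62.0% for Bmp8a. Bmp2, Nog, Chrdl1 and Fst were not printed.

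Each gene had its own pattern across the skin. The mean of the 3 libraries was highest in FB-like cells for Bmp8a only, when the 21 classes and unnamed clusters with at least 50 cells in every library were compared. The Mgp/Cst3 and Lrrc15/Col11a1 clusters, which also carried fibroblast markers, were counted apart from FB-like cells. Among the 11 named classes of these 21, FB-like cells ranked first for 5 genes (Bmp4, Bmp8a, Gdf10, Grem1 and Chrdl1). Pericyte-like (PCY-like) cells did so for Bmp2 and Bmp5, and upper hair follicle-like (UHF-like) cells for Nog and Fst. The other named classes had fewer than 50 cells in at least 1 library and were not ranked. Muscle progenitor-like cells (137, 25 and 22 cells) were 1 of these. Their Bmp4 was 32.5, 71.4 and 68.0 UMIs per 1000 UMIs of Dcn, with Dcn at 2111, 1161 and 2025 CPM. That put Bmp4 above FB-like cells in UV and Rux, on few cells. Lymphocyte-like cells, which should lack the 9 genes, gave a guide to free RNA in droplets of their own depth (median 5466 UMIs): there these genes stood between 0 and 10.1 CPM in the 3 libraries, and Grem1 had 1, 0 and 0 UMIs. Classes of other depth, such as mast cell-like cells (median 1379 UMIs), may differ, and their free RNA was not measured.

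**Figure D1:**
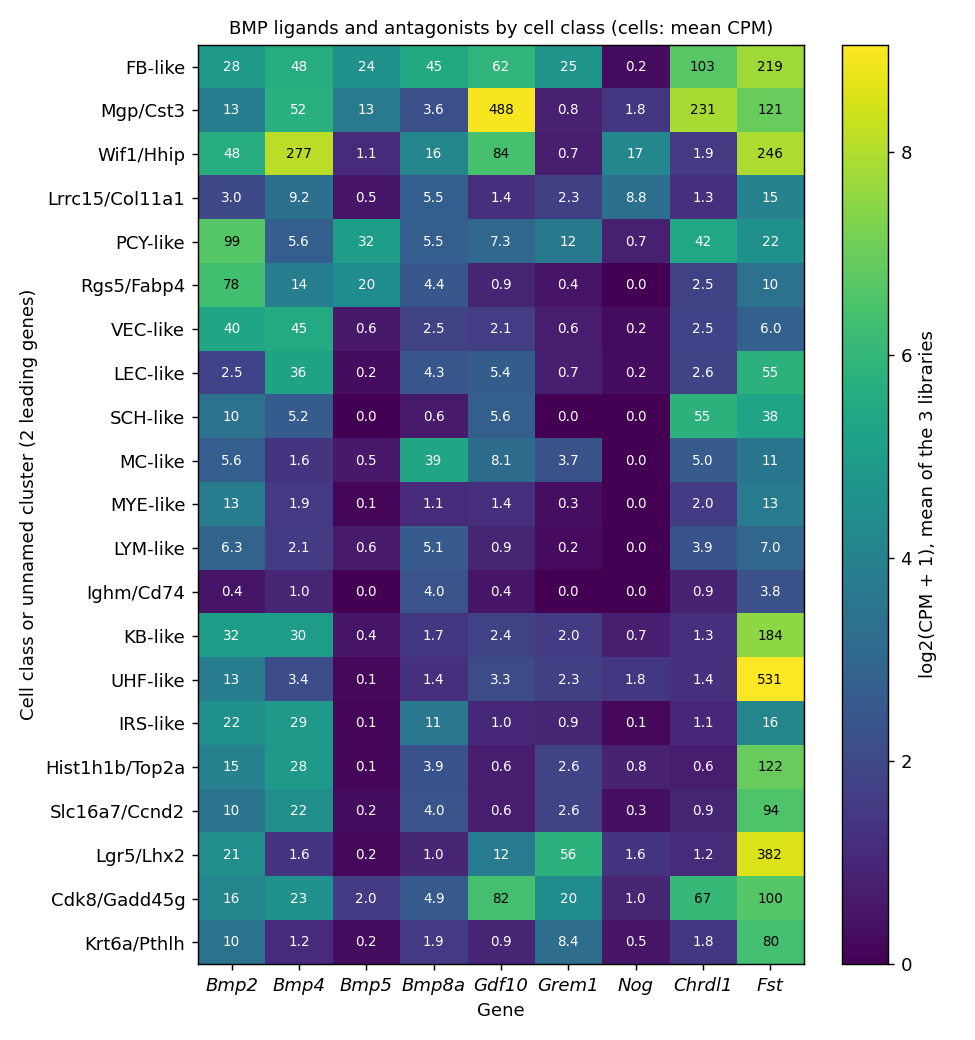
Mean CPM of the 3 libraries (number in each cell, colour as log2 of CPM + 1) for the 9 genes in the 21 classes and unnamed clusters with at least 50 cells per library. Gdf10 is highest in the Mgp/Cst3 cluster (488 CPM), Bmp4 in the Wif1/Hhip cluster (277 CPM) and Fst in UHF-like cells (531 CPM).

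Bmp2, a ligand of the BMP2/4 subgroup, was highest in vessels. PCY-like cells stood at 94.2, 113 and 91.2 CPM and the Rgs5/Fabp4 cluster, which carries pericyte and endothelial genes, at 94.3, 61.4 and 77.3 CPM, ranges that overlapped. The Wif1/Hhip cluster followed at 27.9, 67.4 and 49.6 CPM, with a log2 ratio of 1.27 (1.00 to 1.55) for UV over CON. Inner root sheath-like cells were named from a list of inner root sheath and hair shaft markers, so the class holds both. There Bmp2 was 40.4, 17.2 and 9.87 CPM, lower in UV than in CON by 1.23 on the log2 scale and lower again in Rux. The class joined clusters of 156, 45 and 75 cells in CON, 169, 150 and 115 in UV and 109, 168 and 96 in Rux. The last of the 3 had the hair shaft gene Krt35 among its leading genes. The part of this difference in mix was not tested.

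Bmp4, a ligand with broad roles in the dermis and hair follicle, was led by an unnamed cluster with Wif1 and Hhip among its leading genes. It stood there at 293 CPM in CON, 292 in UV and 244 in Rux. That range did not overlap the next cluster (Mgp/Cst3, 46.5 to 58.9 CPM), FB-like cells (33.9 to 76.2) or vascular endothelial-like cells (29.3 to 66.8), which overlapped one another. Markers of the dermal papilla, the signalling centre at the base of the hair follicle, summed to 1605, 1315 and 1239 CPM in the Wif1/Hhip cluster against 20.7 to 30.8 CPM in FB-like cells. Between CON and UV, Bmp4 in the Wif1/Hhip cluster had a log2 ratio of -0.01 (interval -0.11 to 0.09). In basal keratinocyte-like (KB-like) cells Bmp4 was 56.6, 12.5 and 21.2 CPM, from 543, 99 and 129 cells, a log2 ratio of -2.16 (-2.66 to -1.72) in UV over CON. KB-like cells joined a cluster of 474, 25 and 79 cells in CON, UV and Rux with another of 69, 74 and 50 cells. The part of this change in mix was not tested.

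Bmp5, a ligand of the BMP5/6/7 subgroup, was a gene of fibroblasts and pericytes. FB-like cells held 90.4% of its UMIs in CON, 76.8% in UV and 92.4% in Rux. PCY-like cells (20.4, 46.2 and 30.1 CPM) and FB-like cells (38.8, 12.3 and 20.5 CPM) overlapped, and so did the Rgs5/Fabp4 cluster (13.6, 17.5 and 29.3 CPM). The order of the conditions was opposite in the first 2: CON was the lowest library in PCY-like cells and the highest in FB-like cells.

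Bmp8a, a ligand known best from the germline, was highest in FB-like cells (18.2, 80.4 and 35.6 CPM) and in mast cell-like cells (22.4, 60.6 and 34.7 CPM), which overlapped. The mast cell-like values rest on 2, 26 and 22 UMIs, in cells that also carried the fibroblast gene Dcn at 1210, 289 and 340 CPM, and the part of free RNA in them was not tested. No other class or cluster exceeded 22.1 CPM in any library, the level of the Wif1/Hhip cluster in UV.

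Gdf10, a ligand of the BMP3 subgroup, was highest in an unnamed cluster led by Mgp and Cst3, whose cells carried fibroblast markers at 23636 to 28266 CPM but a median of only 2034.5 UMIs. It stood there at 513 CPM in CON, 574 in UV and 377 in Rux, above every other cluster. The Wif1/Hhip cluster (142, 71.1 and 39.7 CPM), the low-UMI Cdk8/Gadd45g cluster (56.1, 62.8 and 126 CPM) and FB-like cells (74.1, 72.8 and 38.6 CPM) overlapped behind it.

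Grem1, a high-affinity antagonist of BMP2 and BMP4, had 2 main places. One was an unnamed keratinocyte cluster with the hair follicle stem cell genes Lgr5 and Lhx2 among its leading genes, at 65.2, 73.9 and 29.0 CPM, and the other was FB-like cells, at 62.4, 2.01 and 11.6 CPM. Of all Grem1 UMIs, FB-like cells held 47.3% in CON, 15% in UV and 88.3% in Rux, and the Lgr5/Lhx2 cluster held 35.2%, 70.1% and 8.85%. The Lgr5/Lhx2 cluster numbered 632 cells in CON, 230 in UV and 117 in Rux.

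Nog, which binds BMP2 and BMP4 with high affinity, was highest in 2 unnamed clusters, which together held most of its few UMIs. It stood at 15.7, 9.46 and 26.2 CPM in the Wif1/Hhip cluster and at 10.5, 6.07 and 9.77 CPM in the Lrrc15/Col11a1 cluster. The 2 ranges overlapped, and the second did not overlap UHF-like cells, the next in order, at 1.65 to 1.94 CPM. Dermal sheath markers, a list that holds Lrrc15 and Col11a1 themselves, summed to 3231 to 4994 CPM in the Lrrc15/Col11a1 cluster. The same list summed higher in PCY-like cells, at 10523 to 12322 CPM, so it does not set this cluster apart from them. FB-like cells held 5, 8 and 12 Nog UMIs in all, so a difference between conditions was not detectable there at this depth.

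Chrdl1, an antagonist of BMP4, was highest in the Mgp/Cst3 cluster, as Gdf10 was (216, 318 and 160 CPM), overlapping FB-like cells (80.6, 165 and 64.8 CPM), and Schwann-like cells held 57.7, 58.4 and 50.1 CPM of it.

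Fst, like Grem1, had its highest level in cells with keratinocyte markers. UHF-like cells stood at 430, 664 and 497 CPM, overlapping the Lgr5/Lhx2 cluster at 229, 662 and 255 CPM. In KB-like cells Fst was 60.8 CPM in CON, 382 in UV and 109 in Rux, a log2 ratio of 2.65 (2.50 to 2.81) for UV over CON and of -1.81 (-1.98 to -1.64) for Rux over UV. KB-like cells joined a cluster of 474, 25 and 79 cells with another of 69, 74 and 50 cells, as given for Bmp4. The 99 KB-like cells in UV also carried more of the dividing-cell list (1313 CPM against 341 in CON and 920 in Rux) and of the UHF list (1384 CPM against 621 and 619). The part of this mix and of these lists in the Fst values was not tested. In the Wif1/Hhip cluster the order was the reverse, at 387, 160 and 191 CPM.

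In FB-like cells, 2 of the 8 genes with at least 20 UMIs in both libraries together were higher in UV than in CON by at least 1.5-fold, Bmp8a and Chrdl1, and 3 were lower, Bmp4, Bmp5 and Grem1. Of all 16480 genes counted the same way, 14.1% were higher and 15.2% lower, and the median log2 ratio was -0.10. In Rux over UV, 2 of 9 were higher (Bmp5 and Grem1) and 3 lower (Bmp8a, Gdf10 and Chrdl1), beside 6.54% higher and 15.7% lower among 17221 genes. In Rux over CON, 1 of 8 was higher (Bmp8a) and 4 were lower (Bmp4, Bmp5, Gdf10 and Grem1), beside 11.5% higher and 19.6% lower among 16604 genes. Some calls did not hold under either of 2 weightings that gave the libraries the same mix of fibroblast states, as given with the weighted values. These were Bmp8a and Chrdl1 in UV over CON, Gdf10 in Rux over UV, and Bmp8a and Bmp5 in Rux over CON. Bmp8a and Chrdl1 in Rux over UV and Gdf10 in Rux over CON held under 1 of the 2 weightings.

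**Figure D2:**
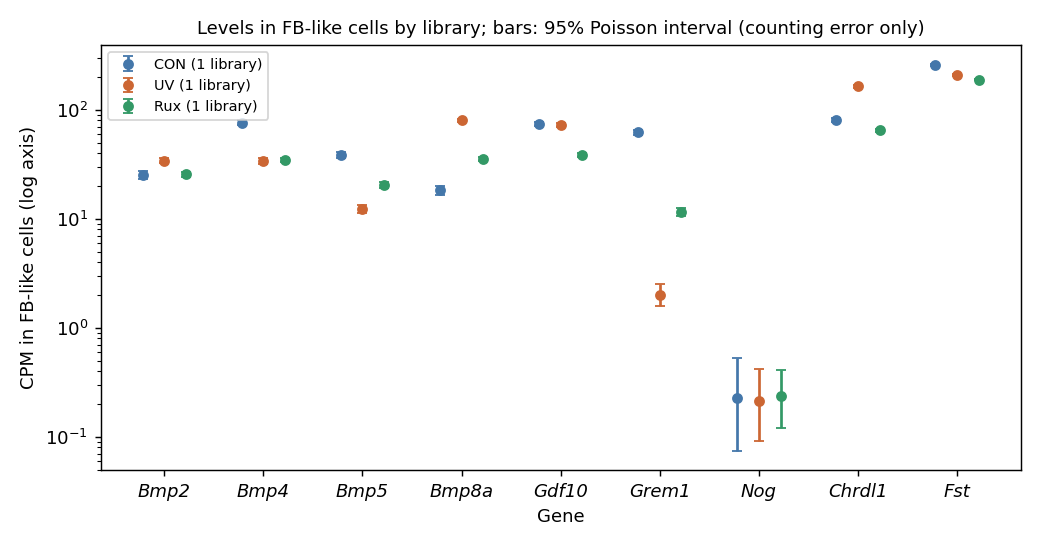
CPM of the 9 genes (log axis) in FB-like cells, 1 library each for CON, UV and Rux, with the 95% Poisson interval as bars. Grem1 spans the widest range, from 62.4 CPM in CON to 2.01 in UV, and Nog lies below 1 CPM in every library.

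Bmp8a had 398 UMIs in the FB-like cells of CON, 3002 in UV and 1814 in Rux, which gave 18.2, 80.4 and 35.6 CPM. UV was 4.41-fold above CON (3.97 to 4.91) and Rux 2.26-fold below UV. The state led by Sntg1, Dtna and Arhgap20 held 46.7%, 75.4% and 49.8% of these UMIs, and its share of FB-like cells was 3.90% in CON, 20.2% in UV and 9.30% in Rux. Within the state Bmp8a was 182, 242 and 169 CPM, a log2 ratio of 0.41 (0.20 to 0.64) for UV over CON and of -0.52 (-0.63 to -0.41) for Rux over UV. The small Gm17268/Hivep1 state, at 138, 242 and 98.4 CPM from 58, 108 and 77 cells, overlapped it. Of 8 states compared (at least 50 cells in every library and 20 UMIs of the gene in the 2 libraries together), Bmp8a was higher in UV than in CON in 7, by at least 1.5-fold in 5, and of 10 states it was lower in Rux than in UV in 6.

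**Figure D3:**
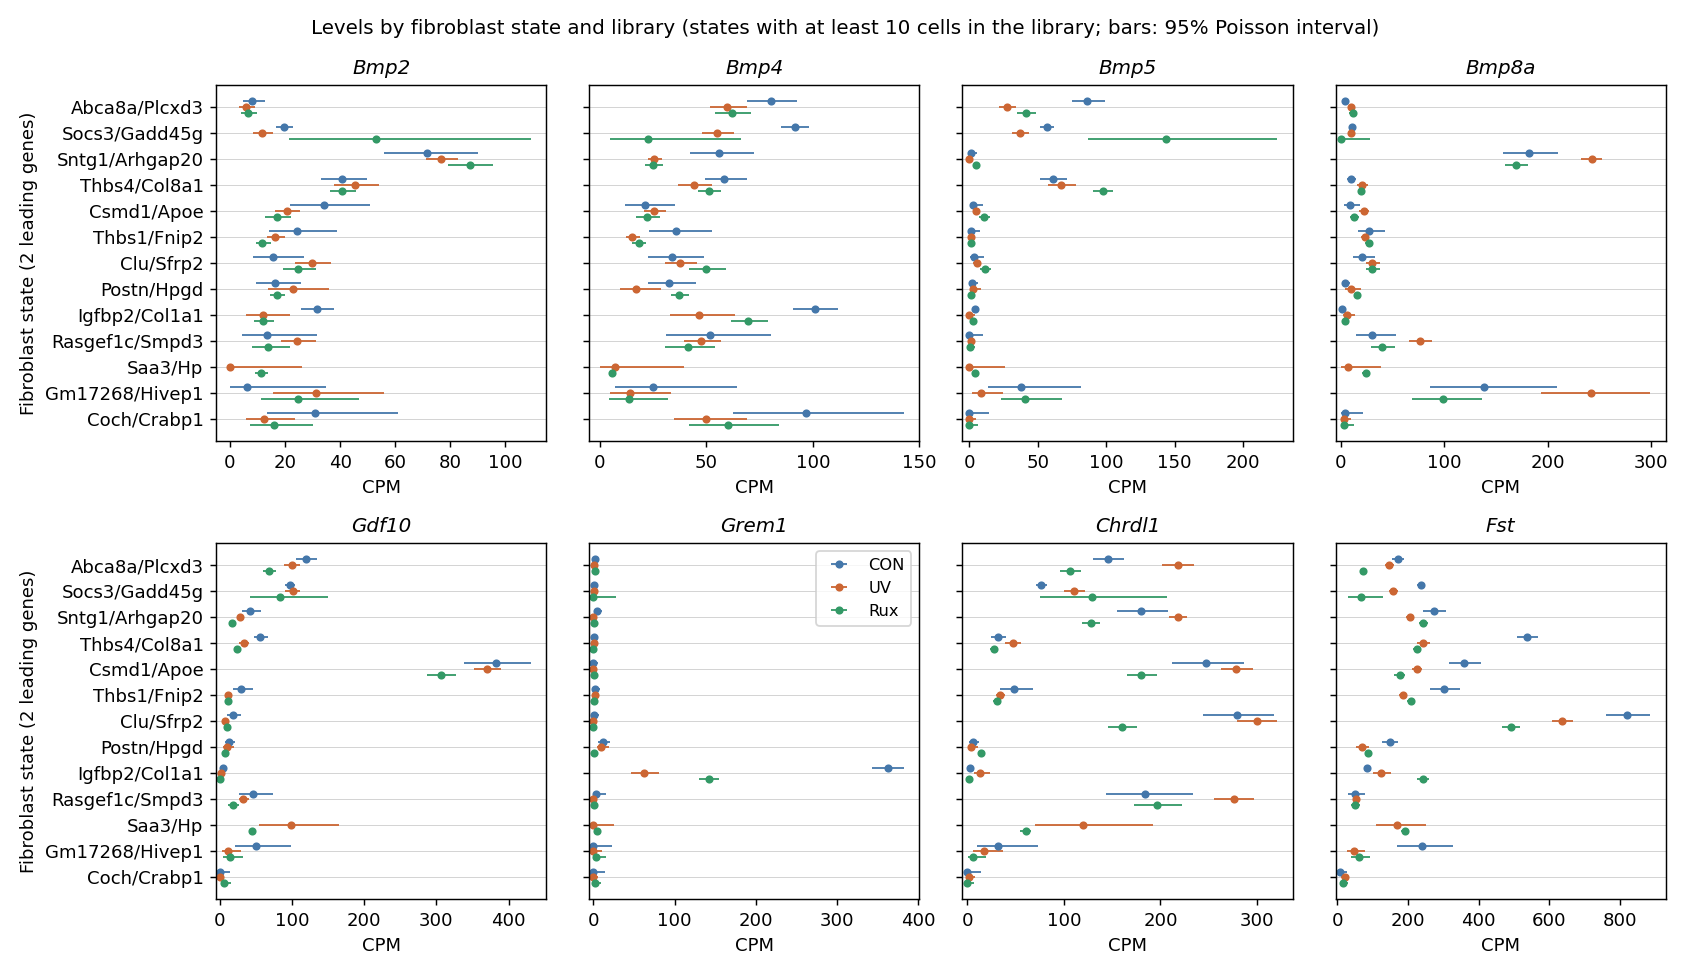
CPM of 8 genes by fibroblast state (rows, called by 2 leading genes) and library (colours), for states with at least 10 cells in that library, with 95% Poisson intervals. Grem1 stands out in the Igfbp2/Col1a1 state, Bmp8a in the Sntg1/Arhgap20 and Gm17268/Hivep1 states, and Gdf10 in the Csmd1/Apoe state.

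Bmp4 had 1664, 1266 and 1772 UMIs in FB-like cells, or 76.2, 33.9 and 34.8 CPM, so UV was 2.25-fold below CON and Rux lay at the level of UV (log2 ratio 0.04, -0.07 to 0.14). It was spread over the states, and the 2 highest, Igfbp2/Col1a1 (101, 46.3 and 69.7 CPM) and Abca8a/Plcxd3 (80.2, 59.8 and 62.1 CPM), overlapped. UV was lower than CON in 7 of 9 states compared, by at least 1.5-fold in 4. A state led by Socs3, Gadd45g and other immediate early genes such as Egr1 and Fos, too small in Rux to be ranked, held 45.5% of the Bmp4 UMIs in CON. That state was 35.8% of FB-like cells in CON, 8.98% in UV and 0.301% in Rux, so values of Rux in it, and those weighted as in CON, rest on few cells.

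Bmp5 stood at 38.8, 12.3 and 20.5 CPM in FB-like cells, from 847, 460 and 1044 UMIs. The Socs3/Gadd45g state, too small in Rux to be ranked, held 55.1% of these UMIs in CON, 29.8% in UV and 1.82% in Rux. Of the states with at least 50 cells in every library, Thbs4/Col8a1 (60.9, 67.2 and 97.5 CPM) and Abca8a/Plcxd3 (86.2, 27.5 and 41.5 CPM) led and overlapped. They went different ways between CON and UV, with log2 ratios of 0.14 (-0.18 to 0.46) in the first and -1.64 (-2.03 to -1.28) in the second. Rux was higher than UV in all 5 states that could be compared, and in the Thbs4/Col8a1 state Bmp5 was higher in Rux than in CON too.

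Gdf10 did not differ between CON and UV in FB-like cells by the 1.5-fold measure, at 74.1 and 72.8 CPM (log2 ratio -0.02, -0.11 to 0.07), and was 38.6 CPM in Rux, 1.89-fold below UV. The Csmd1/Apoe state stood above all others at 382, 371 and 306 CPM, with the Abca8a/Plcxd3 state next at 119, 99.9 and 68.6 CPM. The Csmd1/Apoe state was 4.66% of FB-like cells in CON, 14.1% in UV and 8.94% in Rux. Of the 8 states compared, Gdf10 was lower in UV than in CON in 8, by at least 1.5-fold in 4, and lower in Rux than in UV in 7. In the Socs3/Gadd45g state, which was not compared, it was 96.7 CPM in CON and 101 in UV. That state held 49.5% of the FB-like Gdf10 UMIs in CON.

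Bmp2 differed by less than 1.5-fold, at 25.4, 34.3 and 25.6 CPM in FB-like cells. It was highest in the Sntg1/Arhgap20 state, as Bmp8a was, at 71.5, 76.8 and 87.1 CPM, and next in the Thbs4/Col8a1 state at 40.7, 45.4 and 40.7 CPM, ranges that did not overlap. Within the Sntg1/Arhgap20 state the log2 ratio of UV over CON was 0.09 (-0.25 to 0.47). That state held 13.2% of the FB-like Bmp2 UMIs in CON, 56.0% in UV and 35.7% in Rux, and in CON the Socs3/Gadd45g state held more, at 29.4%.

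Grem1 showed the largest difference of the 9. It had 1363 UMIs in the FB-like cells of CON, 75 in UV and 589 in Rux, and the share of cells with a UMI was 6.23%, 0.383% and 2.19%, or 3.36%, 0.255% and 1.06% after thinning each cell to 2000 UMIs (median depths 6024, 7242.5 and 9777 UMIs). In lymphocyte-like cells 1 of 254, 0 of 241 and 0 of 361 cells had a Grem1 UMI (median depths 5427, 5417 and 5607 UMIs). A count of 0 there allows a share of up to about 1.24% in UV and 0.831% in Rux, by the approximate rule of 3 divided by the number of cells. The Clopper-Pearson limit used for other shares is higher. At 62.4, 2.01 and 11.6 CPM, UV was 30.9-fold lower than CON and Rux was 5.72-fold higher than UV (4.52 to 7.42), still 5.39-fold below CON. The libraries did not overlap in their counting intervals.

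Most of this Grem1 sat in 1 fibroblast state, led by Igfbp2, Cdh4 and Col1a1, which held 97.3% of the FB-like Grem1 UMIs in CON, 69.3% in UV and 90.0% in Rux. The state itself took up 10.9% of FB-like cells in CON (361 cells), 1.25% in UV (62 cells) and 5.59% in Rux (260 cells). Within the state Grem1 stood at 363 CPM in CON (343 to 383), 61.8 in UV (46.1 to 81.0) and 143 in Rux (131 to 155). The conditions had the same order within the state, with a log2 ratio of -2.54 (-2.98 to -2.15) for UV over CON and of 1.19 (0.79 to 1.65) for Rux over UV, against -4.95 and 2.52 in all FB-like cells. In the other states Grem1 was at most 11.7 CPM in every library.

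Chrdl1 had 1760, 6144 and 3298 UMIs in FB-like cells and stood at 80.6, 165 and 64.8 CPM, 2.04-fold higher in UV than in CON (1.94 to 2.15) and 2.54-fold lower in Rux than in UV. It was broad, and the 4 highest states overlapped: Clu/Sfrp2 (279, 300 and 160 CPM), Csmd1/Apoe (247, 279 and 180), Rasgef1c/Smpd3 (184, 276 and 196) and Sntg1/Arhgap20 (180, 218 and 128). The direction was shared by most states, UV being higher than CON in 7 of 8 and Rux lower than UV in 7 of 8, but only 1 state passed 1.5-fold in the first comparison against 5 in the second. In the Mgp/Cst3 cluster Chrdl1 followed the same order, with log2 ratios of 0.56 (0.34 to 0.77) and -0.99 (-1.26 to -0.73).

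Fst differed little in FB-like cells as a whole, at 257, 209 and 190 CPM. The Clu/Sfrp2 state was highest at 821, 637 and 491 CPM, followed by the Thbs4/Col8a1 state at 538, 243 and 225 CPM, which overlapped it. UV was below CON in 8 of 10 states and by at least 1.5-fold in 5. The Igfbp2/Col1a1 state, where Grem1 peaked, went the other way, at 83.7 CPM in CON, 125 in UV and 242 in Rux.

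With the states of every library weighted as in CON, the log2 ratio of Bmp8a in UV over CON became 0.50 in place of 2.14, and that of Grem1 -2.48 in place of -4.95. Chrdl1 moved from 1.03 to 0.44, Bmp4 from -1.17 to -0.72 and Bmp5 from -1.65 to -0.63. Under these weights 3 genes were lower by at least 1.5-fold (Bmp4, Bmp5 and Grem1) and none was higher, and no interval was computed for the weighted values. The share of all genes past 1.5-fold was not computed with weighted states, so weighted counts have no such share beside them. Weights as in UV gave the same counts, at 0.47 for Bmp8a and -2.36 for Grem1.

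In Rux over UV, Gdf10 moved from -0.92 to -0.33 with the weights of CON and to -0.35 with those of UV, under 1.5-fold in both. Chrdl1 went from -1.35 to -0.34 and -0.64, and Bmp8a from -1.17 to -0.62 and -0.49, so each passed 1.5-fold under 1 of the 2 weightings. Bmp5 stood at 1.52 and 1.23 in place of 0.73, and Bmp2 turned from -0.42 to 0.80 with the weights of CON and to 0.16 with those of UV. The weighted Bmp2 values rest in part on 7 UMIs from 14 Rux cells of the Socs3/Gadd45g state. Of 10 states compared, Bmp2 was lower in Rux than in UV in 8, and in none was it higher by at least 1.5-fold. In Rux over CON the sign of 2 called genes turned: Bmp5 went from -0.92 to 0.89 and 0.62, past 1.5-fold the other way, and Bmp8a from 0.97 to -0.13 and -0.029. Gdf10 went from -0.94 to -0.46 and -0.59, while Bmp4 (-0.92 and -0.69) and Grem1 (-1.36 and -1.44) stayed lower by at least 1.5-fold, and Fst, at -0.44 as found, passed it at -0.80 and -0.68. The Socs3/Gadd45g state gave 19 Bmp5 UMIs from 14 cells in Rux. The Bmp5 values of Rux with either weighting thus rest in part on few cells.

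**Figure D4:**
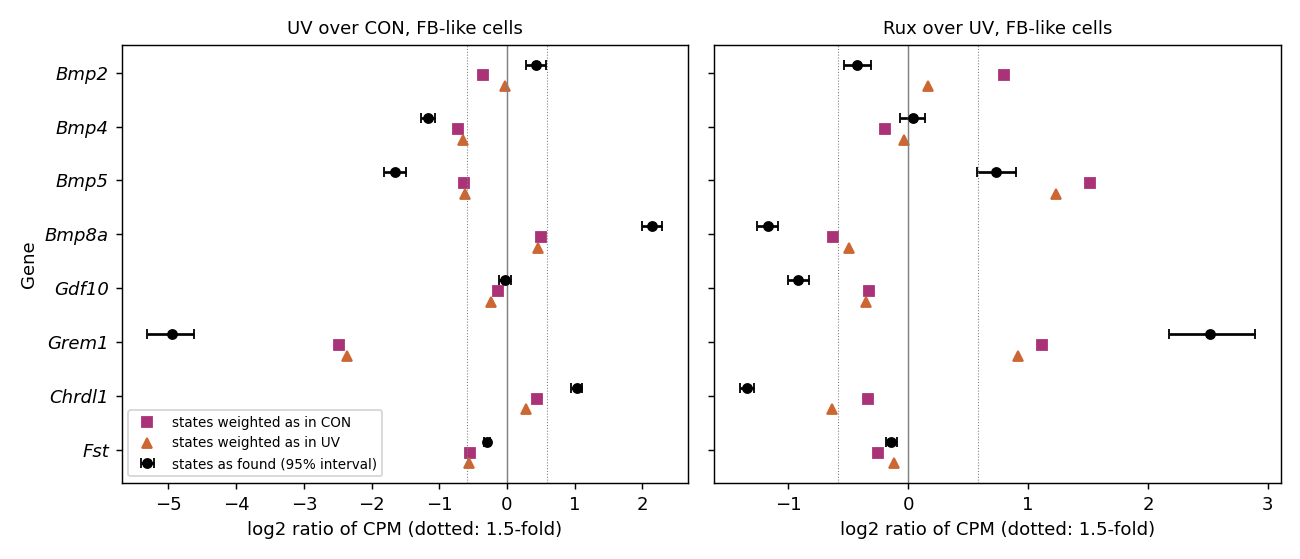
The log2 ratio of CPM in FB-like cells for 8 genes, UV over CON on the left and Rux over UV on the right, with the states as found (black, 95% interval), weighted as in CON (squares) and weighted as in UV (triangles). Weighting as in CON takes Bmp8a from 2.14 to 0.50 in UV over CON and leaves Grem1 at -2.48. Weighted values leave out the Saa3/Hp state.

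Over all kept cells together, Bmp8a and Chrdl1 were higher in UV than in CON by at least 1.5-fold and Grem1 and Nog were lower, beside 19% of 21221 genes higher and 9.98% lower. Bmp4, lower in FB-like cells, had a log2 ratio of only -0.23 over all cells, and Bmp5 of -0.38. In Rux over UV, 1 gene was higher (Bmp5) and 3 were lower (Bmp8a, Gdf10 and Chrdl1), beside 7.38% higher and 15.6% lower among 21013 genes. Fewer cells of a type and less RNA per cell cannot be told apart in these sums.

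The other genes of the pathway were read in FB-like cells from 6 lists of 55 genes. Of the 10 target and feedback genes, 7 were lower in UV than in CON by at least 1.5-fold (Id1, Id2, Id3, Id4, Msx1, Bambi and, on few UMIs, Msx2). None was higher. Of all 16480 genes, 15.2% were lower and 14.1% higher. The median log2 ratio of the 10 genes was -0.76 beside -0.10 over all genes. With the states weighted as in CON, 5 were lower: Id3 (-0.55), Id4 (-0.35) and Msx2 (0.027) no longer passed, and Atoh8 (-0.68) did. With the weights of UV, 6 were lower, without Id2 (-0.47) and Msx2 (0.11) and with Atoh8 (-1.07). The share of all genes past 1.5-fold was not computed with either weighting. Id3, a dominant negative helix-loop-helix protein and BMP target, stood at 1664, 782 and 774 CPM in CON, UV and Rux. Id1, of the same family, was 66.9, 29.5 and 27.4 CPM, and Id2 was 204, 122 and 46.9 CPM. Bambi, a pseudoreceptor that blocks BMP and TGF-beta signals, was 27.8, 14 and 8.31 CPM.

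CON was the highest library for all 4 of these genes, Id1 and Id3 lay at the level of UV in Rux (log2 ratios -0.11 and -0.01), and Id2 and Bambi were lower again by 1.37 and 0.75 on the log2 scale. The ratio of Bambi in Rux over UV was -0.24 and -0.34 with the weights of CON and of UV, under 1.5-fold, and that of Id2 was -0.79 and -0.92. Id1 was lower in UV than in CON in all 9 states compared, and by at least 1.5-fold in 7, while Id2 was lower in 9 of 10 states, by at least 1.5-fold in 8. Smad7, an inhibitory SMAD, was 137, 154 and 210 CPM, highest in Rux. Msx2 had 16, 17 and 20 UMIs, and its interval (-1.76 to 0.39) spanned 0. Id genes also answer other signals than BMP, and immediate early genes led the state that was largest in CON; the part of either was not tested.

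**Figure D5:**
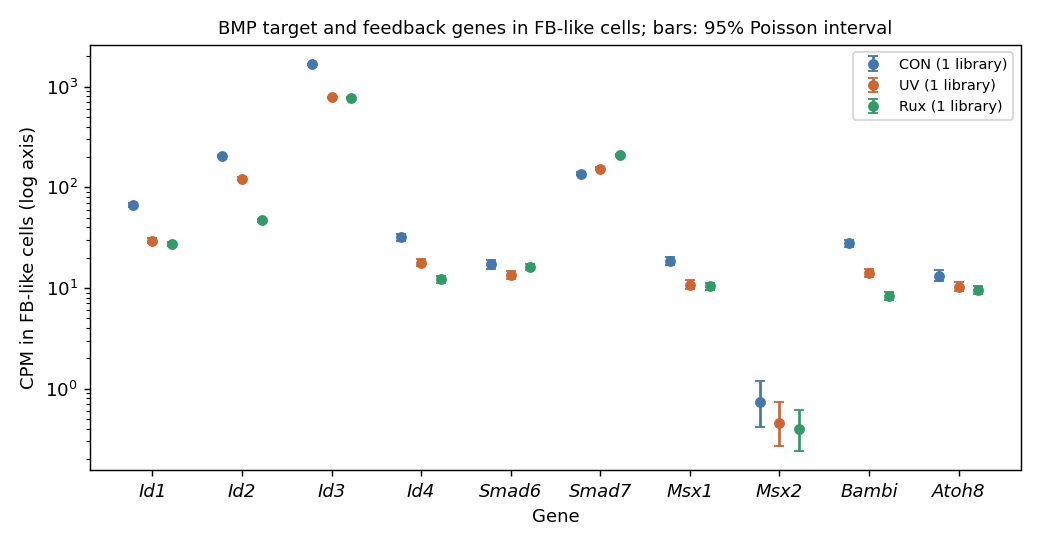
CPM (log axis) of the 10 listed BMP target and feedback genes in FB-like cells, 1 library each for CON, UV and Rux, with 95% Poisson intervals. Id1, Id2, Id3, Id4, Msx1 and Bambi are highest in CON, and Smad7 is highest in Rux at 210 CPM.

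Of 13 other ligands, 7 had enough UMIs and 3 were higher in UV than in CON by at least 1.5-fold, Bmp3, Bmp6 and Bmp7. Of all genes, 14.1% were higher by this measure. Bmp3 stood at 3.57, 11.8 and 8.92 CPM, Bmp6 at 7.19, 22.5 and 15.2 and Bmp7 at 10.7, 20.3 and 8.68. Inhba, which encodes a subunit of activin A, the main target of follistatin, was 17.5, 11.1 and 29.6 CPM, lower in UV than in CON and higher in Rux than in UV by 1.42 on the log2 scale (1.26 to 1.58). Inhbb was the other ligand lower in UV, so 2 of 7 were lower, beside 15.2% of all genes.

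Among 13 other antagonists and modulators, 1 of 10 was higher in UV than in CON (Dand5) and 3 were lower (Sostdc1, Fstl3 and Bmper). Of all genes, 14.1% were higher and 15.2% lower. In Rux over UV 1 of 10 was higher (Nbl1) and 2 were lower (Chrd and Sostdc1), beside 6.54% and 15.7% of all genes. Bmper, a chordin-like modulator of BMP activity, stood at 151, 95.2 and 119 CPM. Nbl1, of the gremlin family, stood at 281, 237 and 369 CPM. Of the 3 chordin proteases, which cut chordin and free its ligands, Tll1 and Tll2 were higher in UV than in CON, beside 14.1% of all genes. Tll2 stood at only 1.14, 4.85 and 1.59 CPM, and Bmp1 was 191, 268 and 264 CPM.

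Receptors and SMADs were counted the same way. Of 11 receptors and co-receptors with enough UMIs, 1 was at least 1.5-fold lower in UV than in CON, beside 15.2% of all genes. This was Eng, a co-receptor at 77.2, 42.2 and 44.9 CPM. In Rux over UV 1 was lower, the type I receptor Bmpr1b at 20.1, 29.8 and 11.8 CPM, beside 15.7% of all genes. None was higher in either comparison, beside 14.1% and 6.54% of all genes. None of the 4 SMADs (Smad1, Smad4, Smad5 and Smad9) passed 1.5-fold in either comparison. Smad1 stood at 139, 187 and 141 CPM and Smad5 at 41.9, 41.7 and 42.6 CPM.

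The genes whose levels most resembled each of the 9 were read over 74 sums of a class or cluster in a library, among 7238 genes, by Pearson's r of log2(CPM + 10), given as a description since sums of 1 library share its depth. Chrdl1 resembled the fibroblast genes Sod3 (r = 0.91), Rarres2 (0.90) and Gsn (0.90), and Bmp5 resembled Ebf2 (0.87), Rcan2 (0.87) and Abcc9 (0.79). Gdf10 came nearest to Serpinf1 (0.82), Inmt (0.82) and Scara3 (0.82). Nog came nearest to the Wnt inhibitors Wif1 (0.84) and Dkk2 (0.81) and to Hhip (0.81), a hedgehog inhibitor.

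The other 5 had no gene above 0.8. Fst was nearest to Nfix (0.77), Irx1 (0.75) and Irx2 (0.69), Bmp2 to Tsc22d1 (0.71), Rgs5 (0.67) and Sparcl1 (0.67), and Bmp4 to Wnt5a (0.68), Mdk (0.64) and Hhip (0.63). Bmp8a was nearest to Maob (0.66), Creb3l1 (0.63) and Tgfbr1 (0.62), and Grem1 to Lgr5 (0.63), Irx1 (0.54) and Rpgrip1 (0.53).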

How the data were processed

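Whole dorsal skin of CON, UV and Rux mice was profiled with 10x 3′ chemistry, 1 library each. The authors deposited raw UMI counts per gene and cell. The submitters' processing notes name Cell Ranger 6.1.2, Seurat 5.3.0 and mm10, whereas the matrix headers name Cell Ranger 7.0.0. Cells with fewer than 200 genes or more than 10% mitochondrial UMIs were removed. Scrublet in scanpy 1.11.5 (Python 3.11.15, numpy 2.4.6, scipy 1.17.1, pandas 2.3.3) scored doublets, and the top 0.8% per 1000 deposited cells (1269, 1128 and 923 cells) were removed.

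Clustering used Seurat 5.3.0 (R 4.3.3, Matrix 1.6.5) with 2000 variable genes, 30 principal components and resolution 1.5 (fibroblasts: 20 and 0.5), without 64 BMP pathway genes and without batch correction. A cluster took a cell type's name when at least 3 of its markers were found in 10% of cells and its score led the next by 1 on the log2 scale. Clusters that met this were still left unnamed for low UMIs with no marker of the type on top, as the Mgp/Cst3 cluster was. Leading genes of another class (the Lrrc15/Col11a1 cluster) or of B cells also left a cluster unnamed. Unnamed clusters are called by leading genes.

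UMIs were summed per library and class and given as CPM with exact Poisson intervals. Ratios had 0.5 UMI added to each sum and a conditional binomial interval, and shares have Clopper-Pearson intervals in the calculations. A gene was counted as different past 1.5-fold with at least 20 UMIs in the pair. Levels were compared across classes, clusters and states with at least 50 cells in every library. No p-value is given, because 1 library per condition leaves no replicates. The ratio and interval steps were tested on simulated data.

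The 9 genes, the 55 other pathway genes and the marker lists were chosen with earlier results of these data known. The rule for names took all 9, up to 4 genes of each pathway list with the largest absolute log2 ratio in FB-like cells among those with at least 100 UMIs in the pair, and the 3 genes most like each member. Other listed genes, such as Smad7 and those that make up a small count, were named after their values were seen. Alternatives covered filters, doublets, resolution, scaling, fold, equal weight per cell and the weighting of states. Plots were drawn with matplotlib 3.10.9.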

Additional observations from a re-analysis of the deposited data

Results flagged for a closer look

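In 7 cases a gene passed 1.5-fold in opposite directions in 2 cell groups of the same comparison, each with at least 100 UMIs and a counting interval off 0. None of these differences between cell groups was tested. The share of all genes that meet the same rule was not computed, so the 7 cases have no such share beside them. Whether they set the genes described here apart from other genes cannot be told. In UV over CON, Bmp2 had a log2 ratio of 1.58 in the Lgr5/Lhx2 cluster and of -1.23 in inner root sheath-like cells, whose mix of clusters differed between the libraries. Bmp4 had 1.02 in the Slc16a7/Ccnd2 cluster and -2.16 in KB-like cells, whose mix of clusters differed too. Bmp5 had 1.16 in PCY-like cells and -1.65 in FB-like cells, whose ratio was -0.63 and -0.61 with states weighted as in CON and as in UV. Fst had 2.65 in KB-like cells, with the same difference in mix, and -1.28 in the Wif1/Hhip cluster. In Rux over UV, Bmp4 had 0.75 in KB-like cells and -1.36 in the Slc16a7/Ccnd2 cluster, so both groups went against their own direction in UV over CON. Grem1 had 2.52 in FB-like cells (1.12 and 0.92 with states weighted as in CON and as in UV) and -1.34 in the Lgr5/Lhx2 cluster. Fst had 1.18 in inner root sheath-like cells, again with a different mix of clusters in the libraries, and -1.85 in lymphatic endothelial-like cells.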

How the results depend on the processing

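Of 131 counts recomputed, 118 stayed within 1.5 times, and of 433 log2 ratios, 300 stayed within their counting interval. The sign of a called ratio turned in 6 cases, all in FB-like cells and under weighted states: with the weights of CON and of UV, Bmp5 stood at 0.89 and 0.62 in Rux over CON (-0.92 as found), Bmp8a at -0.13 and -0.029 in Rux over CON (0.97 as found) and Msx2 at 0.027 and 0.11 in UV over CON (-0.69 as found), and the cause was not tested. These Bmp5 values rest in part on 19 UMIs from 14 Rux cells of the Socs3/Gadd45g state. In FB-like cells the count higher in UV than in CON went from 2 to 0 and the count lower in Rux than in UV from 3 to 1 when states were weighted as in CON or as in UV (the latter chosen after seeing the data), and the cause was not tested. At 2-fold in place of 1.5-fold, by construction, 1 gene was higher in Rux than in UV in FB-like cells, 0 were higher and 2 lower in Rux than in CON, and over all cells 1 was lower in UV than in CON, and 0 were higher and 0 lower in Rux than in UV. Of the target genes, 1 in place of 2 was lower in Rux than in UV with equal weight per cell, and 1 in place of 0 was higher with states weighted as in CON. The share of all genes was computed at 1.5-fold with the reported settings only, so none stands beside the counts at 2-fold or under the other alternatives. By the unthinned share of cells with a UMI, FB-like cells ranked first among the 11 ranked named classes for 3 genes in place of 5. Bmp2, within 1.5-fold in UV over CON as found (0.43), stood at -0.35 with the weights of CON, and in Rux over UV it went from -0.42 to 0.80. The value of 0.80 rests in part on 7 Bmp2 UMIs from 14 Rux cells of the Socs3/Gadd45g state. FB-like cells numbered 12713 to 13515 under the alternatives (12926 as reported). Without weighting, the log2 ratio of UV over CON in FB-like cells ranged from -5.18 to -4.78 for Grem1, from 1.98 to 2.24 for Bmp8a, from 0.90 to 1.13 for Chrdl1, from -1.19 to -1.07 for Bmp4 and from -1.84 to -1.56 for Bmp5. No paired analysis was possible because each condition had 1 library, and for the same reason no library could be left out. Depth limits Nog in FB-like cells.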
